A study of Homo sapiens with 9 samples.

Results

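SYNE2, LRRN4 and TENM1 are 3 genes whose level was higher in SKOV3 cells given an acetylated 4-deoxy sugar than in untreated cells, and they are described here together with their paralogs SYNE1, LRRN1, LRRN2, TENM2, TENM3 and TENM4. The members were found by symbol among probe sets that the platform annotation pairs with exactly 1 gene. Of the 9 listed genes 6 had such a probe set, 1 each, out of 14215 genes measured in this way. TENM2, TENM3 and TENM4 were not analysed here. SYNE2, LRRN4 and TENM1 were chosen by their rise, on these arrays, in cells given the 4-deoxy compound over untreated cells, so their values are given as a description and carry no test. The 3 measured paralogs, SYNE1, LRRN1 and LRRN2, entered by relatedness and were tested.

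SKOV3 is an established human ovarian tumour cell line. All cells were grown in serum-containing medium for 3 days, with 50 µM peracetylated 4-deoxy-GlcNAc (Ac-4-deoxy-GlcNAc), with 50 µM peracetylated GlcNAc (Ac-GlcNAc), or untreated. The labels name no vehicle for the untreated cells. GlcNAc is the amino sugar N-acetylglucosamine, and the 4-deoxy analog lacks its hydroxyl group at carbon 4. Each group had 3 arrays from 3 separate culture flasks. The values are log2 expression levels, so a difference of 1 is a doubling.

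SYNE2 and SYNE1 encode nesprins, very large spectrin-repeat proteins anchored in the outer nuclear membrane. There they bind SUN proteins, and the pair forms the LINC complex that ties the nucleus to the cytoskeleton. TENM1 encodes a teneurin, a large transmembrane protein whose outer part binds latrophilins (ADGRL proteins) and, with them, FLRT proteins in cell adhesion and neuronal wiring. LRRN proteins cross the membrane once and carry leucine-rich repeats outside the cell. LRRN4 has a role in memory in the mouse and is also used as a marker of mesothelial cells, the lining of the body cavities.

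Array medians ran from 6.581 to 6.655 on the log2 scale. The SD over probe sets was 1.92 on untreated replicate 2 and 2.075 to 2.179 on the other arrays, and that array had the lowest mean correlation with the others (0.9867, against 0.9899 to 0.994). The cell line's markers were read on every array: the receptor tyrosine kinase gene ERBB2 ranged from 12.18 to 12.3, the Müllerian transcription factor gene PAX8 from 10.61 to 10.84 and the epithelial keratin gene KRT8 from 10.88 to 11.32. The leukocyte gene PTPRC ranged from 3.979 to 4.699. In RNA of a whole culture, fewer cells of a type and less RNA per cell cannot be told apart.

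SYNE2, the gene of nesprin-2, had log2 levels of 9.16, 8.46 and 8.79 with Ac-4-deoxy-GlcNAc, 7.79, 7.91 and 7.64 with Ac-GlcNAc, and 7.70, 7.43 and 7.62 in untreated cells. All arrays of the 4-deoxy group lay above all other arrays, while the Ac-GlcNAc and untreated arrays overlapped. The mean difference between Ac-4-deoxy-GlcNAc and untreated cells was 1.21 (SE 0.15), or 2.32-fold, the 20th largest rise among 17859 probe sets. SYNE2 had the widest spread within the 4-deoxy group of the 6 genes (SD 0.35, against 0.14 with Ac-GlcNAc and 0.14 in untreated cells). The difference was 1.04 without Ac-4-deoxy-GlcNAc replicate 1, the highest array, and between 1.14 and 1.39 when any other array was left out.

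LRRN4 had log2 levels of 8.53, 8.63 and 8.77 with Ac-4-deoxy-GlcNAc, 7.72, 7.52 and 7.30 with Ac-GlcNAc, and 7.60, 7.51 and 7.48 in untreated cells. The 4-deoxy arrays again stood above all others, and the Ac-GlcNAc arrays reached both above and below the untreated ones. The difference between Ac-4-deoxy-GlcNAc and untreated cells was 1.11 (SE 0.11), or 2.16-fold, and ranked 24th among all rises. Leaving out 1 array at a time kept it between 1.05 and 1.17.

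TENM1, the X-linked teneurin gene, had log2 levels of 9.90, 9.55 and 9.76 with Ac-4-deoxy-GlcNAc, 8.76, 8.88 and 8.69 with Ac-GlcNAc, and 8.80, 8.48 and 8.76 in untreated cells. Its lowest 4-deoxy array was above every array of the other groups. The difference between Ac-4-deoxy-GlcNAc and untreated cells was 1.06 (SE 0.12), or 2.08-fold, the 29th largest rise. With 1 array left out it lay between 0.96 and 1.15.

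The promoter windows of SYNE2 and TENM1 are shown because the levels of these genes followed each other from array to array. The RefSeq table used here holds windows (GRCh38.p14, 250 bases before to 50 after the start) for 8 of the 9 listed genes, all but LRRN4, and the most upstream start was taken for each. The SYNE2 window lies at chr14:63852754-63853053 on the plus strand and the TENM1 window at chrX:125204263-125204562 on the minus strand. Both are written 5′ to 3′ with each CpG dinucleotide in capitals.
SYNE2: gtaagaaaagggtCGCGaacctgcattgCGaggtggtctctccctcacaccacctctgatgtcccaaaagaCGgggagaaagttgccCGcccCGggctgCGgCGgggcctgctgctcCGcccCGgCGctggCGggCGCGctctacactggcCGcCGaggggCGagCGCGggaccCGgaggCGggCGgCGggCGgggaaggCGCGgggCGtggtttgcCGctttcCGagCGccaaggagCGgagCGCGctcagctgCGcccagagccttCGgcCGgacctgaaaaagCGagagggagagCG
TENM1: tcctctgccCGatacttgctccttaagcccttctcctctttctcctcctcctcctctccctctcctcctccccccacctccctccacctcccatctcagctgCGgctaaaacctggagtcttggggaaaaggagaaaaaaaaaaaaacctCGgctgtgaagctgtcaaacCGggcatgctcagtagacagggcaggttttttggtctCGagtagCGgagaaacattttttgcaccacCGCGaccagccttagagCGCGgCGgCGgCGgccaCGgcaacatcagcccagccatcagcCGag
The SYNE2 window held 38 CpG dinucleotides and 71.7% G or C, and 9.91% of the 35116 human windows held at least as many CpGs. The TENM1 window held 15 CpGs and 57.3% G or C, and 48.9% of windows held at least as many. Each motif was searched on both strands. The GC box GGGCGG was present 4 times in the SYNE2 window and absent from the TENM1 window, and 45.0% of all windows hold it. Neither window held CCAAT (34.6% of windows), TATAAA (11.5%), the E-box CACGTG (7.26%), the cyclic AMP element TGACGTCA (1.85%) or the ATF4-type element TGATGNAAN (3.61%). These windows shared none of the motifs searched. RefSeq gave 3 windows for SYNE2 and 2 for TENM1, and only the most upstream of each was searched. Which start is used in SKOV3 cells was not tested.

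**Figure D1:**
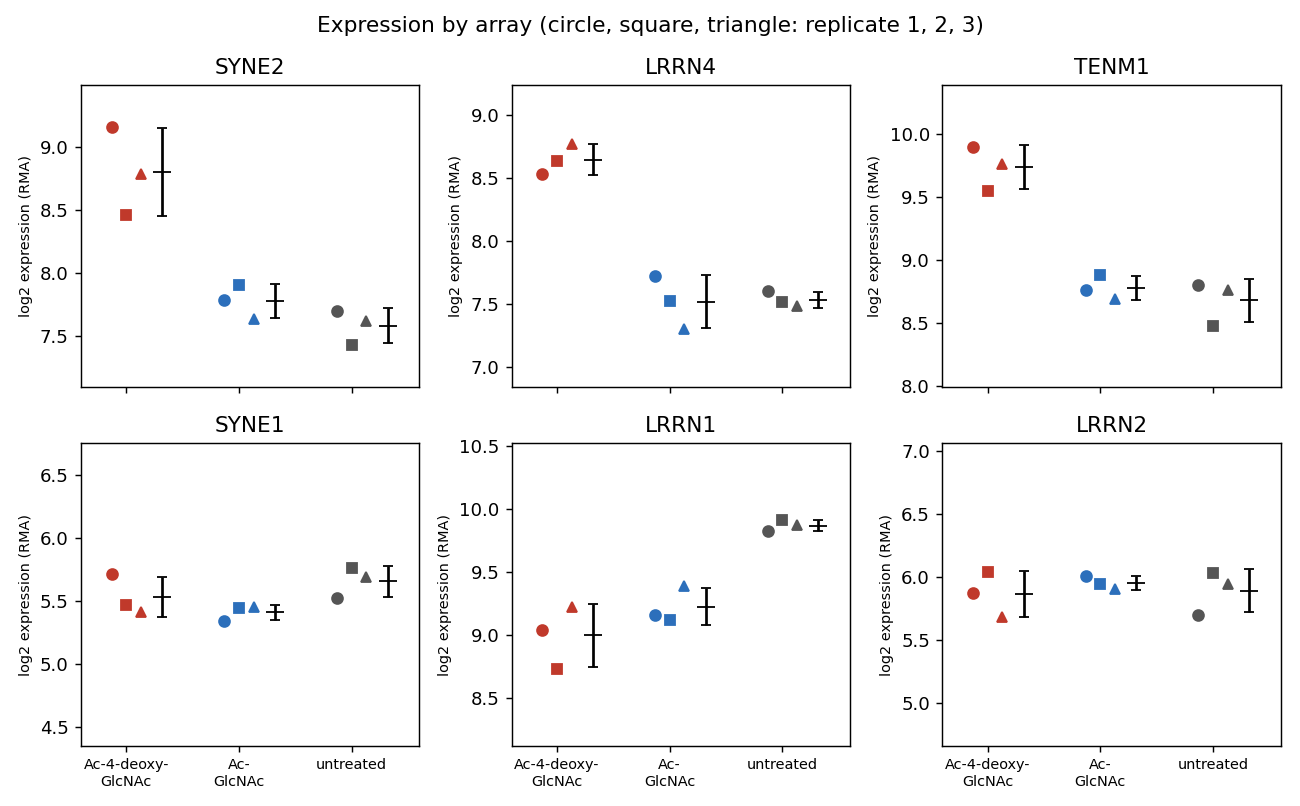
Log2 expression (y axis) of the 6 measured genes on each of the 9 arrays, by group (x axis). Points are arrays, with the replicate number as the shape, the bar beside them is the mean ± SD (n = 3), and every panel spans the same range of log2 units. SYNE2, LRRN4 and TENM1 sit higher in the 4-deoxy group alone, and LRRN1 sits lower in both treated groups.

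With Ac-GlcNAc the arrays of each of these genes overlapped those of untreated cells. The difference between Ac-GlcNAc and untreated cells was 0.19 for SYNE2 (SE 0.15), -0.01 for LRRN4 (SE 0.11) and 0.10 for TENM1 (SE 0.12). Set against each other at the same dose and time, the compounds differed by 1.02 for SYNE2 (SE 0.15), 1.12 for LRRN4 (SE 0.11) and 0.96 for TENM1 (SE 0.12). Each was higher in the Ac-4-deoxy-GlcNAc cells. These comparisons share their untreated or their 4-deoxy arrays with the comparison that chose the genes. No p-value or interval is therefore given for them, and the differences between the compounds are a description.

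None of the 3 measured paralogs passed the test in the upward direction. SYNE1, the gene of nesprin-1, had log2 levels of 5.71, 5.47 and 5.41 with Ac-4-deoxy-GlcNAc, 5.34, 5.44 and 5.45 with Ac-GlcNAc, and 5.52, 5.76 and 5.69 in untreated cells. The 4-deoxy arrays overlapped those of both other groups, and the Ac-GlcNAc arrays lay below the untreated ones, a separation seen for 32.3% of all probe sets. None of the 3 comparisons passed: with limma, the difference was -0.13 (95% interval -0.36 to 0.10, adjusted p = 0.417) for Ac-4-deoxy-GlcNAc against untreated, -0.25 (-0.47 to -0.02, adjusted p = 0.165) for Ac-GlcNAc against untreated and 0.12 (-0.11 to 0.35, adjusted p = 0.769) between the compounds.

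LRRN1, a leucine-rich repeat gene studied in the developing nervous system, fell with both compounds. Its log2 levels were 9.04, 8.73 and 9.22 with Ac-4-deoxy-GlcNAc, 9.16, 9.12 and 9.39 with Ac-GlcNAc, and 9.82, 9.91 and 9.87 in untreated cells. Every treated array was below every untreated array, and the treated groups overlapped. LRRN1 fell by 0.87 with Ac-4-deoxy-GlcNAc against untreated (SE 0.12, limma adjusted p = 0.00149), which makes it 1.83-fold lower, and this call held in all 14 alternative settings tried. It fell by 0.65 with Ac-GlcNAc against untreated (SE 0.12, limma adjusted p = 0.0456), or 1.57-fold. That call was narrow: over the alternatives the adjusted p ran from 0.00382 to 0.188, and it ended without any single Ac-GlcNAc array (0.127, 0.188 and 0.114 without replicate 1, 2 and 3), without untreated replicate 2 (0.122) and with median centring (0.0572). Both falls are measured against the same untreated arrays. Between the compounds LRRN1 differed by -0.22 (95% interval -0.49 to 0.04, limma adjusted p = 0.487), which did not pass.

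LRRN2 had log2 levels of 5.87, 6.04 and 5.68 with Ac-4-deoxy-GlcNAc, 6.01, 5.94 and 5.90 with Ac-GlcNAc, and 5.70, 6.03 and 5.94 in untreated cells. The groups overlapped in every comparison. Its limma difference was -0.02 (95% interval -0.27 to 0.22, adjusted p = 0.902) for Ac-4-deoxy-GlcNAc against untreated and 0.06 (-0.19 to 0.31, adjusted p = 0.753) for Ac-GlcNAc against untreated, and -0.08 (-0.33 to 0.16, adjusted p = 0.882) between the compounds.

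Of the 3 measured paralogs, 1 was therefore called with Ac-4-deoxy-GlcNAc and 1 with Ac-GlcNAc, LRRN1 each time and in the downward direction, and 0 between the compounds. Over all probe sets 11% were called with Ac-4-deoxy-GlcNAc (upward in 5.38% and downward in 5.64%), 0.442% with Ac-GlcNAc (0.235% lower) and 2.38% between the compounds (1.48% lower). At an unadjusted p under 0.05, limma picked LRRN1 in both comparisons with untreated cells, SYNE1 for Ac-GlcNAc, and 0 of the 3 between the compounds. Of all 17859 probe sets it picked 5579 with Ac-4-deoxy-GlcNAc, 4719 with Ac-GlcNAc and 2429 between the compounds.

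The relatives outside the list were read as well. SYNE3, a nesprin that binds plectin, had log2 levels of 5.41, 5.46 and 5.44 with Ac-4-deoxy-GlcNAc, 5.30, 5.30 and 5.23 with Ac-GlcNAc, and 5.24, 5.15 and 5.29 in untreated cells, and the 4-deoxy arrays lay above all others. Its difference of 0.21 between Ac-4-deoxy-GlcNAc and untreated cells did not pass (SE 0.09, limma adjusted p = 0.126), and 32.1% of all probe sets had no overlap in that comparison. With cyclic loess the SYNE3 difference was 0.32 and passed (adjusted p = 0.0353). SYNE4, an epithelial nesprin that binds kinesin, differed by 0.19 in the same comparison (SE 0.11, limma adjusted p = 0.273), but by 0.32 with cyclic loess (adjusted p = 0.0291) and 0.33 with quantile normalization (adjusted p = 0.0252), which both passed. LRRN3 had log2 levels of 4.05, 3.96 and 3.87 with Ac-4-deoxy-GlcNAc, 3.97, 3.97 and 3.92 with Ac-GlcNAc, and 4.27, 4.69 and 4.08 in untreated cells. All its treated arrays lay below its untreated ones, and 32.3% of all probe sets had no overlap between Ac-GlcNAc and untreated cells. LRRN3 differed by -0.39 with either compound against untreated cells (SE 0.13 each, limma adjusted p = 0.0737 with Ac-4-deoxy-GlcNAc and 0.109 with Ac-GlcNAc), and neither passed. The highest LRRN3 value, 4.69, came from untreated replicate 2, the array with the smallest SD over probe sets. Without that array the LRRN3 difference was -0.21 with Ac-4-deoxy-GlcNAc and -0.22 with Ac-GlcNAc, and with cyclic loess -0.19 and -0.15. Without untreated replicate 3 it was -0.52 with Ac-4-deoxy-GlcNAc and passed (adjusted p = 0.0318).

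**Figure D2:**
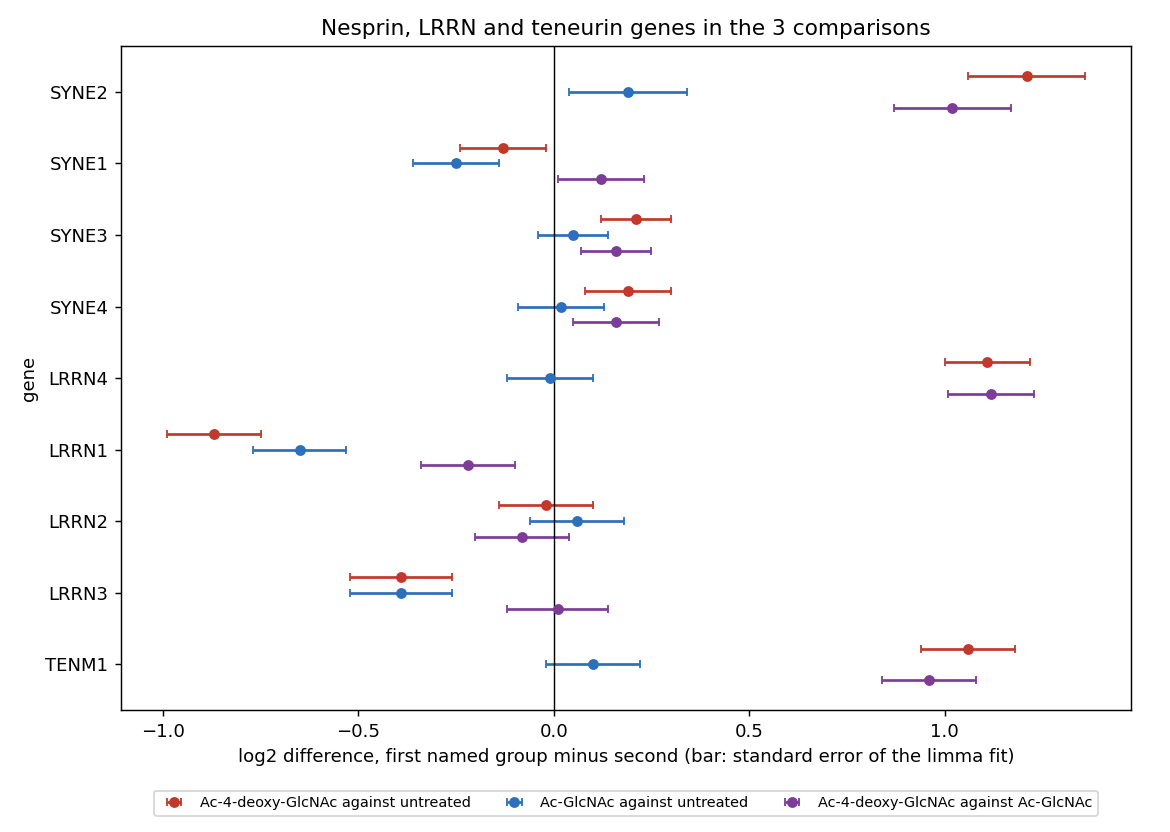
Log2 difference (x axis) of the nesprin, LRRN and teneurin genes (y axis) in the 3 comparisons, first named group minus second. Bars are the standard error of the limma fit over 9 arrays. SYNE2, LRRN4 and TENM1 lie near 1 in both comparisons that hold Ac-4-deoxy-GlcNAc and near 0 for Ac-GlcNAc against untreated, and LRRN1 lies below 0 in all 3.

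SYNE2 and TENM1 also followed each other from array to array. Within the 4-deoxy group both were highest on replicate 1 and lowest on replicate 2, within the Ac-GlcNAc group both were highest on replicate 2 and lowest on replicate 3, and within the untreated group both were highest on replicate 1 and lowest on replicate 2. Over the 9 arrays their Pearson correlation was 0.988, which includes the step between groups. After each group's mean was subtracted it was 0.919. LRRN4 did not share this: its correlation with SYNE2 was 0.91 over the 9 arrays but 0.0221 within groups, and 0.944 and 0.0765 with TENM1. LRRN4 was lowest on the 4-deoxy array on which SYNE2 and TENM1 were highest. In untreated cells both SYNE2 and TENM1 were lowest on replicate 2, the array with the lowest mean correlation with the others (0.9867). Their highest 4-deoxy array, replicate 1, had the lowest such value of the treated arrays (0.9899). How high the within-group correlation of other gene pairs generally was is not given here, so 0.919 has no background. The arrays share their normalization, and these correlations describe the 9 arrays without a test.

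**Figure D3:**
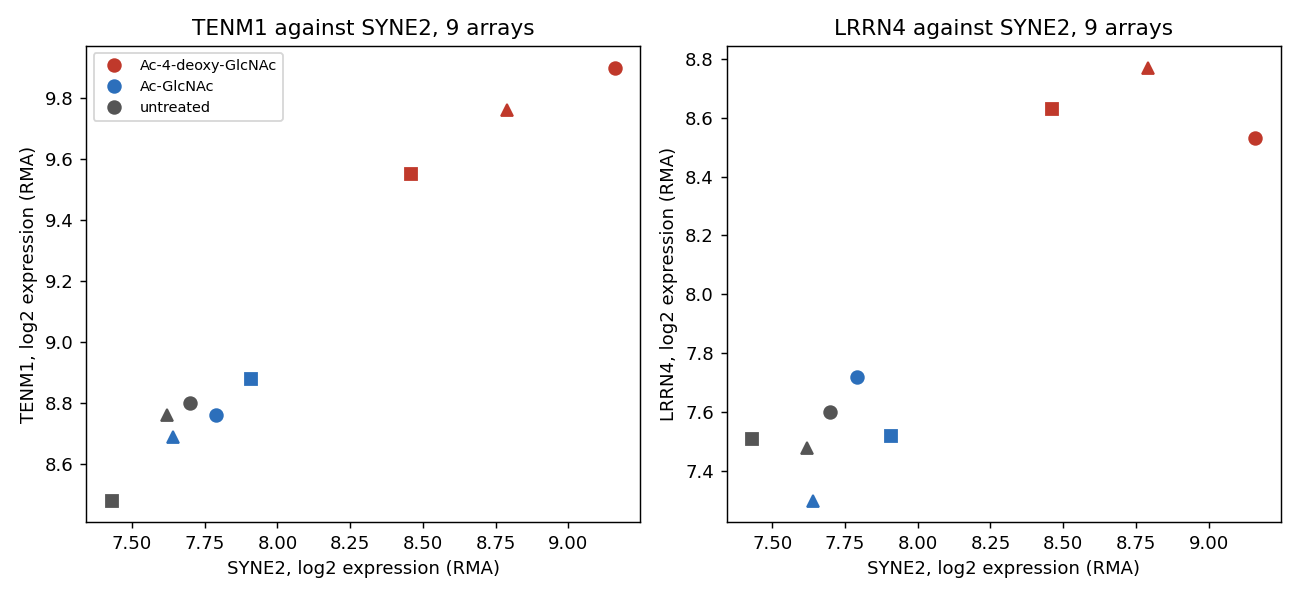
Log2 expression of TENM1 (left, y axis) and LRRN4 (right, y axis) against SYNE2 (x axis) on the 9 arrays, coloured by group, with circle, square and triangle for replicate 1, 2 and 3. TENM1 tracks SYNE2 also inside each group (within-group correlation 0.919), whereas the within-group correlation of LRRN4 with SYNE2 was 0.0221.

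Among 6896 other genes with at least a median spread over the arrays, the ones most like SYNE2 were NFAT5 (Pearson correlation 0.992 over 9 arrays, 0.933 within groups), TENM1 and RNF213 (0.986 and 0.927). NFAT5 encodes a transcription factor of the osmotic stress response and RNF213 a giant ubiquitin ligase. NFAT5 had log2 levels of 10.28, 9.93 and 10.09 with Ac-4-deoxy-GlcNAc, 9.58, 9.61 and 9.44 with Ac-GlcNAc, and 9.43, 9.40 and 9.37 in untreated cells. RNF213 had 10.02, 9.54 and 9.75 with Ac-4-deoxy-GlcNAc, 9.14, 9.35 and 9.20 with Ac-GlcNAc, and 9.15, 9.04 and 9.04 in untreated cells. Both were highest on the same 4-deoxy array as SYNE2.

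Those most like TENM1 after SYNE2 were MPP7, a cell polarity scaffold gene (correlation 0.983, within groups 0.81), and CCDC57 (0.982 and 0.746). The difference between Ac-4-deoxy-GlcNAc and untreated cells was 0.70 for NFAT5, 0.70 for RNF213, 0.44 for MPP7 and 0.48 for CCDC57. A different set was most like LRRN4: MAP3K7CL (0.985, within groups 0.864), PLAT, the tissue plasminogen activator gene (0.977 and 0.728), and LSS, the lanosterol synthase gene of cholesterol synthesis (0.972 and 0.542). PLAT had log2 levels of 8.55, 8.79 and 8.80 with Ac-4-deoxy-GlcNAc, 8.02, 7.97 and 7.78 with Ac-GlcNAc, and 7.95, 7.67 and 7.91 in untreated cells. LSS had 9.63, 9.63 and 9.68 with Ac-4-deoxy-GlcNAc, 9.08, 9.16 and 8.96 with Ac-GlcNAc, and 9.11, 8.90 and 9.03 in untreated cells. Since these genes were picked for a pattern like that of the chosen ones, their differences carry no test.

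The nearest measured protein-coding gene on either side was taken in RefSeq order for each of the 6 genes, a choice made by position. Of these 12 neighbours 1 was called with Ac-4-deoxy-GlcNAc against untreated: SGPP1, a sphingosine-1-phosphate phosphatase gene beside SYNE2, was 0.40 higher (SE 0.11, limma adjusted p = 0.0401), beside 5.38% higher among all probe sets. The SGPP1 call ended on the 6 compared arrays alone (adjusted p 0.0920) and in 5 fits with 1 array left out: without Ac-4-deoxy-GlcNAc replicate 1 (0.0522), 2 (0.0715) or 3 (0.171) and without untreated replicate 2 (0.117) or 3 (0.0601). On the other side of SYNE2, the estrogen receptor beta gene ESR2 differed by -0.03 (SE 0.09, limma adjusted p = 0.868), but by 0.15 with cyclic loess and 0.17 with quantile normalization. With those scalings 3 of the 12 were called, since FERMT1 (0.30 with each, adjusted p 0.0459 and 0.0429) and NFASC (0.28 and 0.29, adjusted p 0.0438 and 0.041) passed besides SGPP1. As deposited, CRLS1 and FERMT1 beside LRRN4 differed by -0.06 and 0.28, and SH2D1A and DCAF12L1 beside TENM1 by -0.20 and 0.08. CRBN and SETMAR beside LRRN1 differed by -0.20 and -0.11. MDM4 and NFASC beside LRRN2 differed by 0.09 and 0.24, and VIP beside SYNE1 by -0.23. ESR1, whose annotated span overlaps that of SYNE1, differed by -0.01.

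Of 22 measured genes of the LINC complex and nuclear envelope, limma picked 3 with Ac-4-deoxy-GlcNAc, 3 with Ac-GlcNAc and 1 between the compounds at an unadjusted p under 0.05. Over all 17859 probe sets it picked 5579, 4719 and 2429. At an adjusted p under 0.05 limma called 0 of the 22 in each of the 3 comparisons, beside 11%, 0.442% and 2.38% of all probe sets. At shares as low as 0.442% and 2.38%, a count of 0 says little about a list of this size. The count for Ac-4-deoxy-GlcNAc depended on the scaling: it was 4 with cyclic loess (SYNE3 and SYNE4 higher, LMNA and TMEM43 lower), 2 with quantile normalization (SYNE4 higher, LMNA lower) and 1 without untreated replicate 1 (TMPO, 0.44, adjusted p = 0.0292). For Ac-GlcNAc it reached 1 with array weights and 2 with 1 array left out, and between the compounds it was 0 in every alternative. Their median log2 difference relative to untreated cells was -0.00916 for Ac-4-deoxy-GlcNAc and 0.0543 for Ac-GlcNAc, beside -0.0506 and -0.0171 over all probe sets. SUN1, an inner nuclear membrane partner of nesprins, had log2 levels of 8.37, 8.42 and 8.29 with Ac-4-deoxy-GlcNAc, 8.41, 8.33 and 8.45 with Ac-GlcNAc, and 8.32, 8.27 and 8.42 in untreated cells. These groups overlapped throughout, and the SUN1 difference between Ac-4-deoxy-GlcNAc and untreated cells was 0.02 (95% interval -0.18 to 0.21), with the sign turned by cyclic loess (-0.04) and quantile normalization (-0.05). SUN2 differed by -0.02 (-0.24 to 0.20) in the same comparison.

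LMNA, the lamin A and C gene, had log2 levels of 9.69, 9.72 and 9.71 with Ac-4-deoxy-GlcNAc, 9.81, 9.77 and 9.80 with Ac-GlcNAc, and 9.89, 9.85 and 9.90 in untreated cells. Its groups did not overlap, yet the difference of -0.17 between Ac-4-deoxy-GlcNAc and untreated cells did not pass (SE 0.08, limma adjusted p = 0.173). In that comparison 32.1% of all probe sets had no overlap. LMNA passed with cyclic loess (-0.24, adjusted p = 0.0412) and quantile normalization (-0.23, adjusted p = 0.0477). The smallest p-values of the list belonged to SYNE3 and TMPO, the gene of lamina-associated polypeptide 2, with Ac-4-deoxy-GlcNAc against untreated (TMPO 0.30, limma adjusted p = 0.134). With Ac-GlcNAc against untreated they belonged to SUN5 (-0.34, limma adjusted p = 0.11, but 0.0452 with array weights and 0.0365 when untreated replicate 1 was left out) and IRAG2 (-0.32, limma adjusted p = 0.126). Over the alternatives SUN5 ran from -0.46 to -0.09 (adjusted p 0.0365 to 0.57) and IRAG2 from -0.44 to -0.08 (0.0672 to 0.626). Both had low levels and were highest on untreated replicate 2 (4.54 and 4.55). Between the compounds the smallest p-values belonged to TMEM43 (-0.28, limma adjusted p = 0.295) and SYNE3 (0.16, limma adjusted p = 0.493).

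Of 13 measured cytoskeletal and ciliary partners of nesprins, 1 was called, higher, in the Ac-4-deoxy-GlcNAc cells relative to untreated cells (7.69% of the list, against 11% of all probe sets), and 1 to 3 in the alternatives. At an unadjusted p under 0.05 limma picked 2 for Ac-GlcNAc and 1 between the compounds, beside 4719 and 2429 of 17859 probe sets. It called 0 for Ac-GlcNAc and 0 between the compounds, beside 0.442% and 2.38% of all probe sets. The called gene was DYNC1H1, the heavy chain of cytoplasmic dynein, a motor that nesprins link to the nucleus. DYNC1H1 had log2 levels of 10.95, 10.75 and 10.97 with Ac-4-deoxy-GlcNAc, 10.47, 10.59 and 10.48 with Ac-GlcNAc, and 10.32, 10.18 and 10.25 in untreated cells. All 3 groups stood apart without overlap. Among all probe sets 32.1% had no overlap with Ac-4-deoxy-GlcNAc against untreated, 32.3% with Ac-GlcNAc against untreated and 21.2% between the compounds. DYNC1H1 rose by 0.64 with Ac-4-deoxy-GlcNAc against untreated (SE 0.10, limma adjusted p = 0.00214, called in all 14 alternatives), while the difference of 0.26 with Ac-GlcNAc against untreated (adjusted p = 0.127) and that of 0.38 between the compounds (adjusted p = 0.0587) did not pass. The difference between the compounds passed in 8 of the 14 alternatives (adjusted p 0.0206 to 0.234), 1 of them without Ac-4-deoxy-GlcNAc replicate 2 (0.0422). The cytoplasmic actin gene ACTG1 differed by 0.30 with Ac-GlcNAc against untreated (limma adjusted p = 0.104, but 0.0463 with array weights) and FSCN1, an actin-bundling gene, by -0.14 between the compounds (limma adjusted p = 0.589).

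Partners of teneurins changed in either direction. Of 15 measured genes, limma called 1 higher and 3 lower in Ac-4-deoxy-GlcNAc cells over untreated cells (26.7% of the list, against 11% of all probe sets). For Ac-GlcNAc it picked 4 at an unadjusted p under 0.05, beside 4719 of 17859 probe sets. It called 0 for Ac-GlcNAc, beside 0.442% of all probe sets. Between the compounds it called 1, lower, beside 1.48% of all probe sets called lower. The Ac-4-deoxy-GlcNAc count ran from 1 to 4 with 1 array left out and from 2 to 5 in the other alternatives. Between the compounds these ranges were 0 to 1 and 0 to 2. With array weights 3 were called for Ac-GlcNAc (ADGRL3, FLRT2 and SORBS2). The median differences were -0.0873 with Ac-4-deoxy-GlcNAc, -0.022 with Ac-GlcNAc and 0.0154 between the compounds. ADGRL3, which encodes latrophilin 3, a teneurin receptor, had log2 levels of 6.37, 6.46 and 6.37 with Ac-4-deoxy-GlcNAc, 6.73, 6.77 and 6.75 with Ac-GlcNAc, and 6.89, 6.94 and 7.09 in untreated cells. The 3 groups did not overlap. Between the compounds 21.2% of all probe sets did not, and against untreated 32.1% did not with Ac-4-deoxy-GlcNAc and 32.3% with Ac-GlcNAc. ADGRL3 fell by 0.57 with Ac-4-deoxy-GlcNAc against untreated (SE 0.09, limma adjusted p = 0.00307), a call that held in all 14 alternatives. As deposited, its differences of -0.22 with Ac-GlcNAc against untreated (limma adjusted p = 0.149) and -0.35 between the compounds (limma adjusted p = 0.0634) did not pass. The latter passed with cyclic loess, the filter, array weights and the 6 compared arrays alone.

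FLRT3, which binds latrophilins on the cell surface, had log2 levels of 7.53, 7.78 and 7.62 with Ac-4-deoxy-GlcNAc, 8.03, 8.26 and 8.01 with Ac-GlcNAc, and 8.21, 8.07 and 8.09 in untreated cells. Only the 4-deoxy arrays stood apart, and 32.1% of all probe sets had no overlap between Ac-4-deoxy-GlcNAc and untreated cells. FLRT3 fell by 0.48 with Ac-4-deoxy-GlcNAc against untreated (SE 0.10, limma adjusted p = 0.0136), a call that ended without Ac-4-deoxy-GlcNAc replicate 1 (0.0543) or 3 (0.0576). Its relative FLRT2 had 6.58, 6.31 and 6.78 with Ac-4-deoxy-GlcNAc, 6.47, 6.48 and 6.51 with Ac-GlcNAc, and 6.29, 6.11 and 6.06 in untreated cells. Both treated groups lay above the untreated arrays, and 32.3% of all probe sets had no overlap between Ac-GlcNAc and untreated cells. FLRT2 rose by 0.40 with Ac-4-deoxy-GlcNAc against untreated (SE 0.12, limma adjusted p = 0.0429), while for Ac-GlcNAc the difference of 0.33 did not pass (adjusted p = 0.117, but 0.0410 with array weights). The FLRT2 call ended with array weights (adjusted p 0.0646), on the 6 compared arrays alone (0.0955), without Ac-4-deoxy-GlcNAc replicate 1 (0.0946) or 3 (0.188) and without untreated replicate 2 (0.103) or 3 (0.103). SORBS2, an adaptor of the actin cytoskeleton, fell by 0.40 with Ac-4-deoxy-GlcNAc against untreated (SE 0.10, limma adjusted p = 0.0232). That call ended on the 6 compared arrays alone (adjusted p 0.0611), without Ac-4-deoxy-GlcNAc replicate 1 (0.0584) or 3 (0.107) and without untreated replicate 3 (0.0694). The netrin receptor gene UNC5C differed by -0.29 with Ac-GlcNAc against untreated (limma adjusted p = 0.117), and by -0.34 to -0.06 over the alternatives.

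Of 25 measured leucine-rich repeat adhesion genes, 1 rose and 1 fell with Ac-4-deoxy-GlcNAc, namely FLRT2 and FLRT3, which this list shares with the teneurin partners (8% of the list, against 11% of all probe sets). The Ac-4-deoxy-GlcNAc count ran from 0 to 2 with 1 array left out and from 1 to 3 in the other alternatives. At an unadjusted p under 0.05 limma picked 9 of the 25 for Ac-GlcNAc, beside 4719 of all 17859 probe sets. It called 0 for Ac-GlcNAc, beside 0.442% of all probe sets, and 3 with array weights. FLRT3, lower, was the only one called between the compounds as deposited, beside 1.48% of all probe sets called lower. SLITRK5 was called higher between them with cyclic loess, median centring, the filter, trend and robust options, array weights and the 6 compared arrays alone. With median centring FLRT3 was not called. The median difference from untreated cells was -0.14 with Ac-4-deoxy-GlcNAc and -0.115 with Ac-GlcNAc, beside -0.0506 and -0.0171 over all probe sets. The smallest p-values with Ac-GlcNAc belonged to LRRC4 (-0.40, limma adjusted p = 0.0927) and SLITRK4 (-0.45, limma adjusted p = 0.105), both genes of synaptic adhesion proteins. Over the alternatives LRRC4 ran from -0.48 to -0.22 and SLITRK4 from -0.58 to -0.24. With array weights both passed (adjusted p 0.0294 and 0.0362), as they did when untreated replicate 1 was left out (0.0437 and 0.0436).

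**Figure D4:**
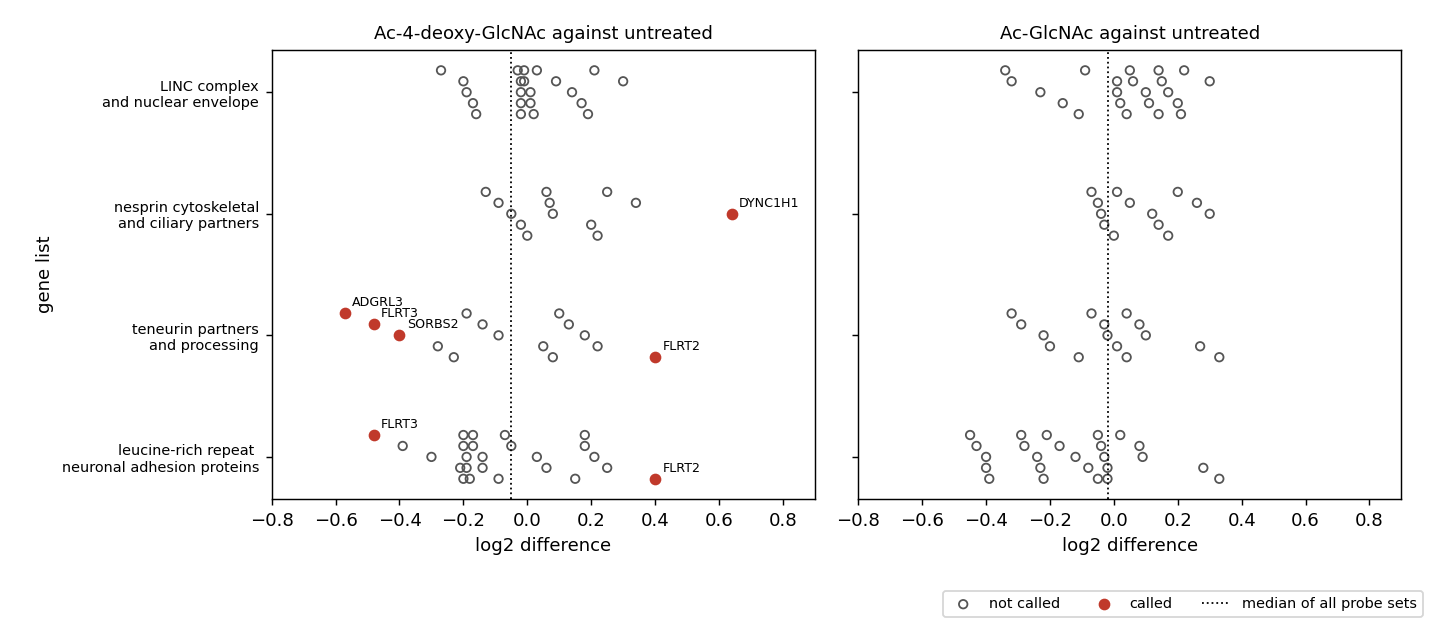
Log2 difference (x axis) of each measured gene in 4 lists (y axis, where the height within a list has no meaning) with Ac-4-deoxy-GlcNAc (left) and Ac-GlcNAc (right) against untreated. Filled points passed an adjusted p under 0.05, and the dotted line is the median of all probe sets. The nuclear envelope list has no filled point, DYNC1H1 stands apart at 0.64, and the Ac-GlcNAc panel has none. These are the values as deposited.

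Markers of cell types in which these genes are known were set beside the members. Of 6 measured mesothelial markers LRRN4 is 1. The other 5, MSLN, CALB2, WT1, PDPN and BNC1, differed by -0.20 to 0.11 in that comparison, with a smallest limma adjusted p of 0.239, and 0 of them were called in any comparison with limma (0 also at an unadjusted p under 0.05 in all 3). Over all probe sets 5.64% were called lower and 5.38% higher with that compound. Of 9 neuronal markers 2 fell with Ac-4-deoxy-GlcNAc and 0 rose: MAP2 (-0.51, limma adjusted p = 0.00867) and STMN2 (-0.62, limma adjusted p = 0.0288). With Ac-GlcNAc against untreated STMN2 also differed by -0.62 (SE 0.16, limma adjusted p = 0.0851), which passed only with other settings such as array weights. Between the compounds STMN2 differed by 0.00 (limma adjusted p = 0.998). The STMN2 call ended on the 6 compared arrays alone (adjusted p 0.061), without Ac-4-deoxy-GlcNAc replicate 2 (0.0598) or 3 (0.14) and without untreated replicate 2 (0.0972). The mean log2 level of the neuronal list was 4.68 to 4.86 with Ac-4-deoxy-GlcNAc, 4.81 to 4.86 with Ac-GlcNAc and 4.9 to 5.39 in untreated cells. These levels are low: the filter at the 25th percentile of mean level kept 2 of the 9 genes and removed STMN2. SYP, which was not called, had a mean of 5.199 but reached 6.759 on its highest array. Of 6 fibroblast markers 4 fell with Ac-4-deoxy-GlcNAc, COL1A1 (-0.92), COL1A2 (-0.85), POSTN (-0.60) and LUM (-0.46, limma adjusted p = 0.0474, the largest of the 4), with list means of 5.77 to 5.78 with that compound, 5.92 to 6.08 with Ac-GlcNAc and 6.28 to 6.44 in untreated cells. The LUM call ended on the 6 compared arrays alone (adjusted p 0.0845), without Ac-4-deoxy-GlcNAc replicate 1 (0.136) or 2 (0.0979) and without untreated replicate 1 (0.0765) or 3 (0.113). Of 9 epithelial and ovarian markers KRT19 (-0.49) and KRT7 (-0.46) fell and CDH1 (0.45) rose with Ac-4-deoxy-GlcNAc, and of 4 endothelial markers PECAM1 (0.41) rose, while 0 of 4 leukocyte markers passed (1 at an unadjusted p under 0.05). These calls too ended in some fits, for KRT19 when Ac-4-deoxy-GlcNAc replicate 1 was left out (adjusted p 0.0503) and for CDH1 when replicate 3 was (0.0681). The KRT7 call ended on the 6 compared arrays alone (0.0556), without Ac-4-deoxy-GlcNAc replicate 1 (0.091) or 3 (0.0741) and without untreated replicate 1 (0.0589). The PECAM1 call ended on the 6 compared arrays alone (0.0513) and without Ac-4-deoxy-GlcNAc replicate 1 (0.055) or 3 (0.0691). With limma 0 markers of these 6 lists were called for Ac-GlcNAc as deposited, beside 0.442% of all probe sets. With array weights 3 markers were called. Between the compounds limma called MAP2 (-0.62, adjusted p = 0.00714) and COL1A1 (-0.56, adjusted p = 0.00781) lower and CDH1 (0.55, adjusted p = 0.0112) and KDR, an endothelial receptor gene (0.36, adjusted p = 0.0497), higher with Ac-4-deoxy-GlcNAc, beside 2.38% of all probe sets called. The part of these shifts in the levels of the members was not tested.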

How the data were processed

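RNA of 9 flasks was measured on 9 arrays, 3 per group. Titles gave the group and replicate number. The deposited values are log2 levels, 1 per probe set and array, which the authors obtained by RMA in Partek with hg18 as the genome build, per the submitters' processing notes. Versions, settings and filters are not given in the sources used here. Such a value pools the exons of a gene and does not separate transcript forms.

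Of 17859 probe sets, 14413 named 1 gene, 2405 several and 1041 none. Symbols were updated by gene identifier through RefSeq GRCh38.p14, which held 14385 of those 14413. A gene with several probe sets was read from the one with the highest mean.

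Values entered limma 3.58.1 (lmFit, then eBayes, under R 4.3.3) without change, all 9 arrays in 1 fit with group as the only term, leaving 6 residual degrees of freedom. Tests were two-sided, p-values were adjusted by Benjamini-Hochberg across every probe set, and those under 0.05 were called. Intervals are 95% from that fit. The script was tested on simulated data. With 3 arrays a group, precision is limited: a difference had a median SE of 0.11.

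The members and lists were chosen with earlier results of these data known. Named were all members, SUN1, SUN2, LMNA, LRRN3, SYNE3 and SYNE4, up to 4 called genes per list and comparison by size (or the 2 smallest p-values where none was called), and the 3 genes most correlated with each chosen gene. The neighbours in RefSeq order, and the called markers of other cell types, were added after their values could be seen. Alternatives were a replicate block, cyclic loess, median centring, a filter at the 25th percentile of mean level, trend with robust fitting, weighting of arrays, a fit of only the 6 arrays compared and leaving out each array. Quantile normalization was added after the data were seen.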

Additional observations from a re-analysis of the deposited data

Results flagged for a closer look

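For 5 tested genes named here, FLRT3 and the markers MAP2, COL1A1, CDH1 and KDR, the effects of the compounds differed by a test of the difference itself. FLRT3 is on the lists of teneurin partners and leucine-rich repeat proteins. Its mean log2 level was 7.644 in Ac-4-deoxy-GlcNAc cells and 8.101 in Ac-GlcNAc cells, a difference of -0.46 (SE 0.10, limma adjusted p = 0.0358). No array of either group reached into the other, which held for 21.2% of probe sets. In the 14 alternatives the adjusted p ran from 0.0122 to 0.176 and 6 ended the call. These were median centring (0.0532) and the fits without Ac-4-deoxy-GlcNAc replicate 1 (0.176) or 3 (0.109) and without Ac-GlcNAc replicate 1 (0.0907), 2 (0.17) or 3 (0.0782).

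The markers differed between Ac-4-deoxy-GlcNAc and Ac-GlcNAc cells by -0.62 for MAP2 (limma adjusted p = 0.00714, called in all 14 alternatives), -0.56 for COL1A1 (0.00781), 0.55 for CDH1 (0.0112) and 0.36 for KDR (0.0497). The COL1A1 call ended without Ac-GlcNAc replicate 1 (0.0525). The CDH1 call ended without Ac-4-deoxy-GlcNAc replicate 1 (0.0557) or 3 (0.0532) and without Ac-GlcNAc replicate 1 (0.0651) or 3 (0.0628). The KDR call ended with the replicate block (0.0785), with median centring (0.0502) and whichever of the 6 arrays was left out (0.0888 to 0.226).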

How the results depend on the processing

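Of 87 pairs of a named gene and a comparison, 45 kept their direction and their side of the threshold in every alternative. Another 28 crossed the threshold in some, and 14 changed sign in some, LRRN4 and TENM1 with Ac-GlcNAc among them. The 87 include pairs of SYNE2, LRRN4 and TENM1 and of the genes picked for likeness to them. For those genes the side of the threshold with Ac-4-deoxy-GlcNAc largely followed from the choice, so the counts are no test of them. The differences of SYNE2, LRRN4 and TENM1 with Ac-4-deoxy-GlcNAc against untreated ran from 1.04 to 1.39, 1.05 to 1.17 and 0.93 to 1.15. With Ac-GlcNAc, those of LRRN4 (-0.11 to 0.09) and TENM1 (-0.02 to 0.16) reached either side of 0. The other changes of sign were as follows. LRRN2 with Ac-4-deoxy-GlcNAc against untreated took 0.04 with cyclic loess, 0.05 with array weights, 0.04 with quantile normalization and -0.12 to 0.07 with 1 array left out. LRRN2 took -0.03 to 0.13 with 1 array left out for Ac-GlcNAc and -0.17 to 0.01 between the compounds. SUN1 took -0.04 and -0.05 with cyclic loess and quantile normalization for Ac-4-deoxy-GlcNAc (-0.01 to 0.06 with 1 array left out), -0.05 and -0.06 for Ac-GlcNAc, and 0.01 with either between the compounds. LRRN3 between the compounds took -0.04 with either (-0.03 to 0.05 with 1 array left out), ESR2 with Ac-4-deoxy-GlcNAc 0.15 and 0.17 (-0.05 to 0.02), and MDM4 -0.01 with array weights. With 1 array left out SUN2 and ESR1 with Ac-4-deoxy-GlcNAc took -0.09 to 0.06 and -0.05 to 0.03, and SYNE4 with Ac-GlcNAc -0.04 to 0.10. The cause of these changes was not tested.

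With Ac-4-deoxy-GlcNAc against untreated 1968 probe sets were called, 818 on the 6 compared arrays alone, and 604 to 3076 with 1 array left out (890 lacking Ac-4-deoxy-GlcNAc replicate 1 and 604 lacking its replicate 3, 3076 lacking untreated replicate 1 and 1003 lacking its replicate 2). With Ac-GlcNAc 79 were called, 324 with the replicate block, 47 with cyclic loess, 32 with median centring (19 higher, against 37 of the 79), 141 with trend and robust options, 1760 with array weights, 48 on the 6 arrays and 36 with quantile normalization. It was 4 to 1359 with 1 array left out (9, 7 and 4 lacking Ac-GlcNAc replicate 1, 2 and 3, then 1359, 23 and 248 lacking the untreated ones). Between the compounds 425 were called, 1187 with array weights, and 141 to 493 with 1 array left out (141 and 199 lacking Ac-4-deoxy-GlcNAc replicate 1 and 3, then 148, 165 and 159 lacking the Ac-GlcNAc ones). The count of paralogs called was 1 with Ac-4-deoxy-GlcNAc and 0 between the compounds throughout. With Ac-GlcNAc it was 0 with median centring and 0 to 1 with 1 array left out.

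Equal replicate numbers gave correlations of deviations from -0.245 to 0.369, and 3 of 9 arrays correlated best with their own number, so the numbers were not taken as pairs. With the replicate block 2207, 324 and 432 probe sets were called, and LRRN1 with Ac-GlcNAc had an adjusted p of 0.0193. No probe set named a member together with other genes, so that alternative was not run.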
